A study of Homo sapiens with 8 samples.

Results

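The mitotic kinases described here are 10 genes, PLK1, PLK4, AURKA, AURKB, NEK2, TTK, BUB1, BUB1B, MELK and WEE1, chosen by gene name out of the 43317 genes with a probe on the array. Each gene was represented by its brightest probe, and all 10 were measured on every array. Gene expression was compared on 8 Agilent 2-colour arrays of 1 slide, each with RNA of mock cells in Cy3 and RNA of transfected cells in Cy5. The prostate cancer line PC3 received miR-99a-3p or miR-100-3p, and on 2 further arrays miR-150-5p or its partner strand miR-150-3p. The hypopharyngeal squamous cancer line FaDu received either strand of miR-99a, miR-99a-5p or miR-99a-3p. The pancreatic cancer line PANC-1 received si-FOXQ1-1 or si-FOXQ1-2, siRNAs against the forkhead factor FOXQ1. All were delivered with the lipid reagent RNAiMAX, and the labels give the mock cells as not transfected. Each condition was 1 array and no dye swap was made, so dye and transfection cannot be told apart, no test of a transfection was possible and each ratio describes 1 pair of RNA samples. The error given after ± is the scanner software's error of the spot, which holds no variation between cultures. A lower signal in bulk RNA cannot separate fewer dividing cells from less transcript per cell.

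Between 19184 and 20919 genes per array were well above background in at least 1 channel, and these are called detected genes below. Their median log2 ratio lay between -0.03 and 0.02. The spike-in RNAs had a slope of 0.882 to 0.900 on their expected log ratio, so ratios were slightly compressed. The squamous markers TP63, KRT5, KRT14, KRT6A and DSG3 were above background in both FaDu mock channels and in neither PANC-1 one, and in PC3 only KRT6A was, in 2 of 4 channels at a signal of at most 25.5. CDKN2A, listed as absent from PANC-1, went against that listing, since it was above background in 2 of 2 PANC-1 mock channels. FOXQ1, the target of the siRNAs, had a log2 ratio of -2.16 ± 0.29 with si-FOXQ1-1 and -2.12 ± 0.28 with si-FOXQ1-2.

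Mitotic kinases drive the entry into mitosis, the duplication and separation of centrosomes, the attachment of chromosomes to the spindle and the checkpoint that delays anaphase. Most are made shortly before division and removed after it, so that their transcripts are plentiful in cycling cells and scarce in resting ones. PLK1 and AURKA act at centrosomes and promote mitotic entry, PLK4 starts centriole duplication, and NEK2 separates the centrosomes. AURKB is the catalytic subunit of the chromosomal passenger complex, while TTK, BUB1 and BUB1B (the latter a pseudokinase) act in the spindle checkpoint. MELK is a kinase of cycling cells, and WEE1 opposes the others by holding CDK1 inactive before mitosis.

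The mature miRNAs are shown because the kinases' values with miR-99a-3p are set below against those with its sister strand miR-99a-5p and with miR-100-3p, the corresponding strand of a related hairpin. In these RefSeq sequences (GRCh38.p14) capitals mark the seed, bases 2 to 8 from the 5′ end, which guides target pairing. Both strands of miR-99a lie on chromosome 21, at chr21:16539101-16539122 for the 5p and chr21:16539138-16539159 for the 3p strand (plus strand), and miR-100-3p lies at chr11:122152240-122152261 (minus strand).
miR-99a-5p: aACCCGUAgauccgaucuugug
miR-99a-3p: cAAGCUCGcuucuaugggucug
miR-100-3p: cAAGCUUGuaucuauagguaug
The sequences of miR-99a-3p and miR-100-3p were the same at 17 of 22 positions, counted from the 5′ end, and differed by C7U within the seed and by C9U, U10A, G16A and C20A outside it. The seed of miR-99a-5p was shared with neither. The conditions miR-150-5p and miR-150-3p are given by name only.

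In PC3 cells with miR-99a-3p all 10 kinases had a lower signal than in the mock cells, and 9 of 10 were at least 2-fold lower, WEE1 being the exception. Over all 20545 detected genes of that array, 7.39% were at least 2-fold lower and 4.23% at least 2-fold higher. Of the 17452 genes well above background in both channels, as 8 of the kinases were, 3.99% were lower and 4.18% higher. The median log2 ratio of the kinases was -2.25, a 4.75-fold lower signal, and the detected genes had a median of 0.02. All 10 kinases were below 0 by more than their spot errors, which ran from 0.22 to 0.47, as were 31.1% of the detected genes.

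Of the kinases of the centrosome, PLK1 gave a mock signal of 772 and a signal of 342 after miR-99a-3p (log2 ratio -1.18 ± 0.23), the smallest difference after WEE1. Its probe lies at chr16:23700970-23701212 (hg19). AURKA went from 2959 to 818 (-1.85 ± 0.27, probe at chr20:54945120-54945179). Both stayed far above background in the transfected cells. NEK2 had a mock signal of 376, and its signal of 49.8 in transfected cells was not well above background. Its 7.55-fold lower value is thus the ratio of these 2 signals and not a minimum. PLK4 had a mock signal of 147, and at 13.8 its transfected signal was not well above background either. Against 45.8, the lowest Cy5 signal called above background on that array, PLK4 was 3.21-fold lower. The highest Cy5 signal on that array that was not called above background was 73.4, and against that value the differences of NEK2 and PLK4 were 5.12-fold and 2.01-fold. The probes lie at chr1:211836861-211836920 for NEK2 and chr4:128816182-128816241 for PLK4.

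AURKB went from 417 to 88.1 (-2.24 ± 0.31, probe at chr17:8110655-8110917). TTK, the kinase that recruits the checkpoint proteins to unattached kinetochores, went from 492 to 71.9 (-2.77 ± 0.34, probe at chr6:80749430-80749489). This was the lowest ratio among the 8 kinases measured above background in both channels. BUB1 went from 1909.5 to 472 (-2.02 ± 0.28, probe at chr2:111395699-111397340) and BUB1B from 3799.9 to 796 (-2.26 ± 0.29, probe at chr15:40512828-40512887). The checkpoint kinases therefore spanned less than 1 unit on the log2 scale. MELK went from 1702 to 299 (-2.51 ± 0.31, probe at chr9:36677192-36677251). WEE1 went from 741 to 467 (-0.67 ± 0.22, probe at chr11:9611073-9611132), and 13.9% of the detected genes had a lower ratio. For the other 7 kinases measured in both channels that share ran from 0.243% (TTK) to 5.48% (PLK1).

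The array holds a second, dimmer probe for PLK1 and for NEK2. In PC3 cells with miR-99a-3p neither second probe was well above background in Cy5. Their bounds were at least 2.77-fold lower for PLK1 (mock signal 127) and at least 3.65-fold lower for NEK2 (mock signal 167). After another background correction and normalization (limma, normexp and loess) 8 kinases stayed at least 2-fold lower, PLK1 moving to -0.93. The ratios of AURKB, TTK, NEK2 and PLK4 then moved to -1.39, -1.84, -1.63 and -1.16.

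**Figure D1:**
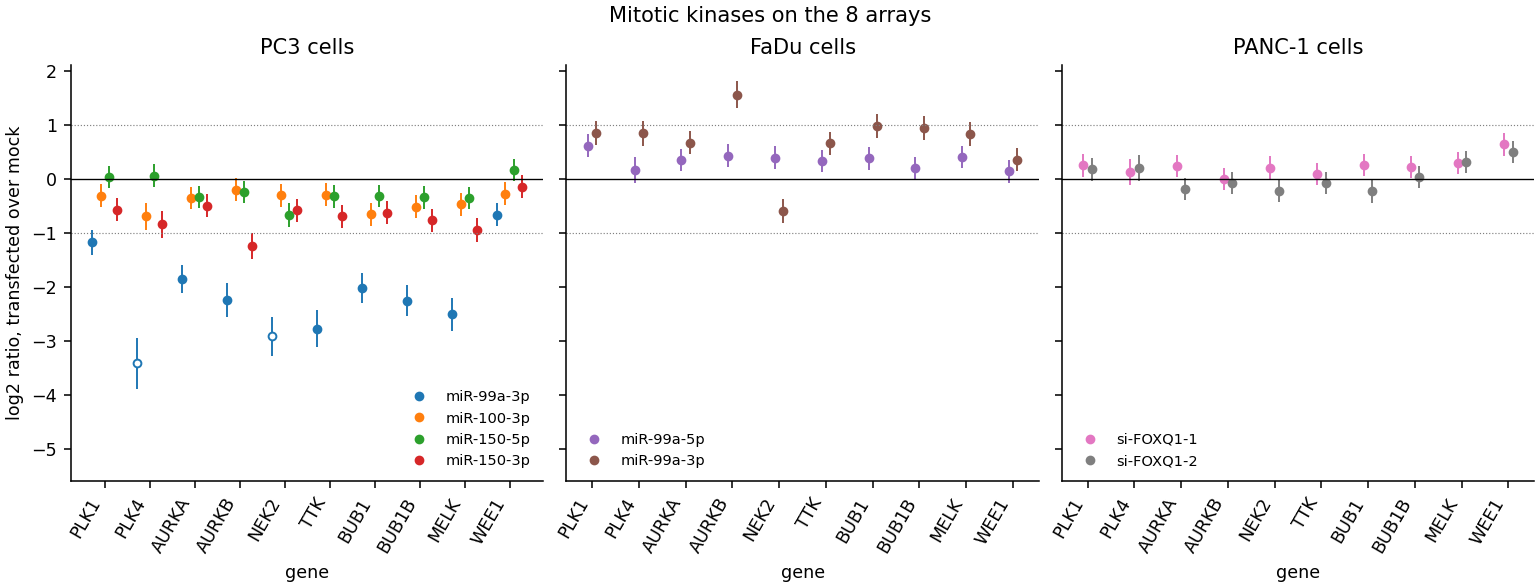
Log2 ratio of transfected over mock cells (y axis) for each of the 10 kinases (x axis) in PC3, FaDu and PANC-1 cells; points are single arrays, bars the scanner software's spot error, open points had a Cy5 signal not well above background, and dotted lines mark 2-fold. The miR-99a-3p points of PC3 cells lie lowest for every kinase, while 9 of 10 FaDu points with the same miRNA lie above 0.

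MiR-100-3p, whose seed differs from that of miR-99a-3p at 1 position, gave smaller differences in the same cell line. All 10 kinases were below 0, from -0.69 ± 0.25 (PLK4) to -0.20 ± 0.21 (AURKB), with a median of -0.33, and 9 of 10 were below 0 by more than the spot error, against 24.8% of the detected genes. None of them was 2-fold lower or higher, compared with 3.34% and 0.987% of the 20273 detected genes. Of the 17060 genes well above background in both channels, as all 10 kinases were, 0.334% were lower and 0.944% higher. PLK4, BUB1 (-0.66 ± 0.21) and BUB1B (-0.52 ± 0.21) were the lowest by their brightest probes. The second probes of PLK1 (-0.88 ± 0.31) and NEK2 (-0.56 ± 0.26) were lower than the brightest ones, -0.31 ± 0.21 for both genes. For each kinase the ratio was lower with miR-99a-3p than with miR-100-3p by more than the combined spot errors of the 2 arrays. The gap ran from -0.39 ± 0.30 for WEE1 to -2.48 ± 0.40 for TTK among the 8 kinases above background throughout. AURKB, the kinase closest to 0 with miR-100-3p, differed by -2.04 ± 0.38.

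**Figure D2:**
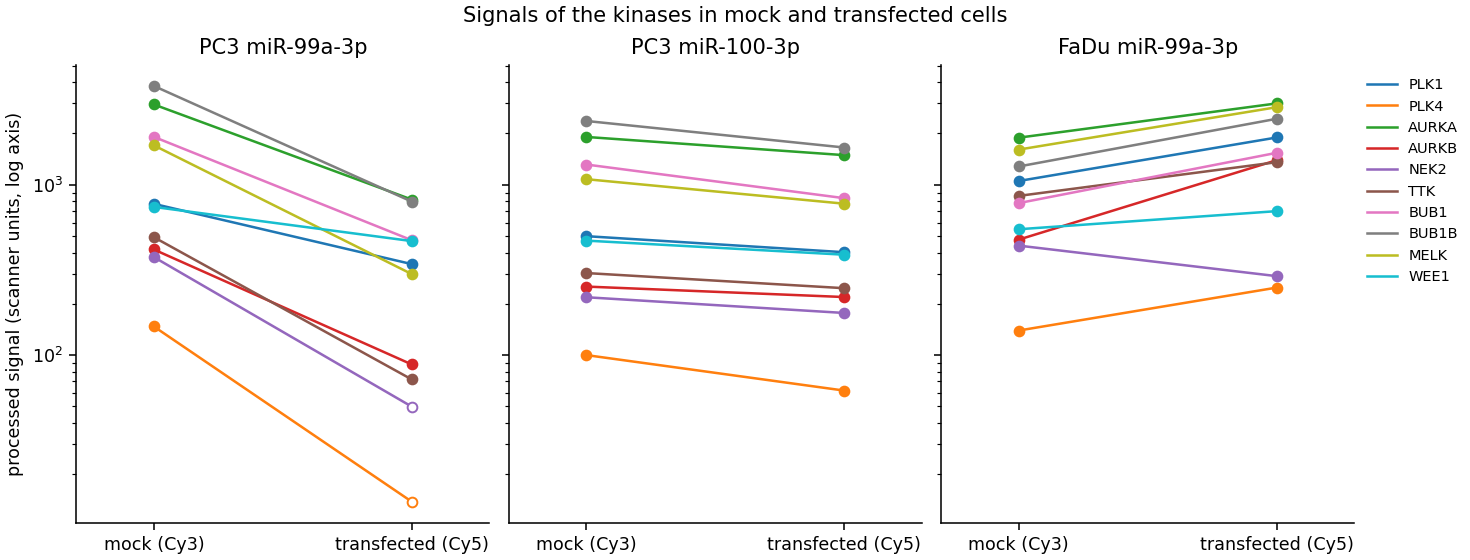
Processed signal (log axis, scanner units) of each kinase in mock (Cy3) and transfected cells (Cy5) on 3 arrays; lines join the 2 channels of 1 array and open points were not well above background. The lines descend steeply in PC3 cells with miR-99a-3p, slightly with miR-100-3p, and ascend in FaDu cells with miR-99a-3p except for NEK2.

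In FaDu cells the same miR-99a-3p went with higher signals of most kinases. Here 9 of 10 were above 0 by more than their spot error, against 33.6% of the detected genes, with a median of 0.83 over the 10. AURKB was the only kinase at least 2-fold higher, against 8.25% of the 19184 detected genes. None was 2-fold lower, against 9.37%. Of the 16482 genes well above background in both channels, as all 10 kinases were, 7.68% were 2-fold higher and 5.48% lower. The share of kinases past 2-fold was thus near the background on this array, and most kinases lay between 0 and 1.

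AURKB went from 476 in mock FaDu cells to 1394 (1.55 ± 0.25, a 2.93-fold higher signal). BUB1 went from 780.3 to 1540.0 (0.98 ± 0.22) and BUB1B from 1280.0 to 2439 (0.93 ± 0.22). After limma normexp, loess and Aquantile between arrays, with both FaDu mock channels averaged as the control, PLK1, at 1.04, came before BUB1 and BUB1B. PLK1 (0.85 ± 0.22), PLK4 (0.84 ± 0.23) and MELK (0.83 ± 0.22) followed within their spot errors of each other, and AURKA (0.67 ± 0.21), TTK (0.66 ± 0.21) and WEE1 (0.35 ± 0.21) were lowest among those above 0. NEK2 was the exception, with a signal of 439 in mock and 291 in transfected cells (-0.60 ± 0.22). Its ratio became -0.35 after limma normexp and loess, and -0.35 with averaged FaDu mock channels. Its second probe, with 259.6 and 235, was also below 0 but within its error (-0.14 ± 0.22). The ratio of every kinase was lower in PC3 than in FaDu cells with miR-99a-3p, by -1.02 ± 0.30 (WEE1) to -3.79 ± 0.40 (AURKB) among the 8 kinases above background in both channels of both arrays. After limma normexp and loess AURKB had -1.39 in PC3 and 1.38 in FaDu cells. BUB1B then had -2.16 and 0.94, a wider gap than AURKB.

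Squamous markers of the FaDu line moved on the same array. The 8 cell line markers detected there also include KRT8, KRT18 and CDKN2A, which are not squamous markers. Of the 8, 4 were at least 2-fold lower with miR-99a-3p, against 9.37% of the detected genes. They were KRT6A (-2.83), DSG3 (-1.94), KRT14 (-1.66) and KRT5 (-1.17), all of them keratinocyte genes. The remaining squamous marker, TP63, was not past 2-fold. None of the 8 was 2-fold higher, against 8.25%. In all, 6 markers were below 0 and 2 above, the highest at 0.60. With miR-99a-5p 0 of 8 were past 2-fold, against 4.86% of the detected genes lower and 0.851% higher. The part of these markers in the kinase values was not tested.

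The sister strand miR-99a-5p gave small positive ratios in FaDu cells. All 10 kinases were above 0, between 0.13 ± 0.21 (WEE1) and 0.61 ± 0.21 (PLK1), with a median of 0.36, and 7 of 10 exceeded the spot error, against 19.1% of the detected genes. The second PLK1 probe was within its error of 0 (0.12 ± 0.28), so the 2 PLK1 probes disagreed on its place. None reached 2-fold, against 4.86% of the 19282 detected genes lower and 0.851% higher. Among the 15771 genes well above background in both channels, as all 10 kinases were, these shares were 0.165% and 0.894%. NEK2 was at 0.39 ± 0.21 and its second probe at 0.50 ± 0.22, so NEK2 was the only kinase lower with miR-99a-3p than with miR-99a-5p (by -0.98 ± 0.30). AURKB was higher with miR-99a-3p by 1.12 ± 0.33, the widest gap in the other direction.

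In PC3 cells with miR-150-3p all 10 kinases were again below 0, with a median of -0.67, and 9 of 10 exceeded the spot error, against 30.5% of the detected genes. AURKB was the only one at least 2-fold lower (-1.25 ± 0.24, from 497 to 208), against 6.68% of 20815 detected genes lower and 2.69% higher. Of the 17605 genes well above background in both channels, as all 10 kinases were, 2.28% were lower and 2.62% higher. The AURKB ratio was -0.93 after limma normexp and loess. It was -0.70 when the signals were also normalized between arrays (Aquantile) and the 4 PC3 mock channels averaged as the control. No kinase reached 2-fold lower in either setting. MELK (-0.95 ± 0.22) and PLK4 (-0.85 ± 0.25) came next in the main values, and WEE1 (-0.15 ± 0.21) was closest to 0. After limma normexp and loess PLK4 had -0.53, behind BUB1B (-0.75) and TTK (-0.66). With the averaged mock channels NEK2 moved from -0.59 ± 0.21 to -0.19. The second PLK1 probe was not well above background in Cy5 and at least 3.38-fold lower, whereas the brighter one had -0.57 ± 0.21, so the 2 PLK1 probes disagreed on that array.

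With miR-150-5p the kinases divided. PLK1 (0.03 ± 0.20), PLK4 (0.06 ± 0.22) and WEE1 (0.16 ± 0.21) were within their errors of 0. The other 7 were below 0 by more than their errors, from -0.25 ± 0.21 (AURKB) to -0.67 ± 0.22 (NEK2), whose second probe had -0.97 ± 0.24, while 24.3% of the detected genes were below 0 by more than theirs. None was past 2-fold, against 4.49% of 20919 detected genes lower and 0.664% higher. Of the 17629 genes well above background in both channels, as all kinases were, 0.783% were lower and 0.630% higher. The median of the kinases was -0.33. Between the strands of miR-150, 8 kinases differed by more than the combined errors, all lower with miR-150-3p, and AURKA and NEK2 did not.

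The 4 PC3 mock channels were not alike, and the kinases took part in this. On the log2 scale relative to each channel's 75th percentile, 9 of 10 kinases were higher in both mock channels of the miR-150 arrays than in both of the miR-99a-3p and miR-100-3p arrays, by 0.11 (BUB1) to 0.45 (AURKB). WEE1 overlapped. Of 18981 genes above background in all 4 channels, 31.0% were likewise higher and 32.1% lower. The part of this split in the kinase values was not tested. Each ratio above uses the mock cells of its own array, except where averaged mock channels are named.

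In PANC-1 cells depleted of FOXQ1 the kinases stayed near their mock signals, apart from WEE1. WEE1 went from 1122 to 1743 with si-FOXQ1-1 (0.64 ± 0.21) and from 1019 to 1436 with si-FOXQ1-2 (0.50 ± 0.21), the highest ratio of the 10 on both arrays. It exceeded 96.8% and 95.6% of the detected genes there. MELK was also above its error with both siRNAs, at 0.29 ± 0.21 and 0.31 ± 0.21.

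The other kinases did not follow 1 direction. With si-FOXQ1-1 the median was 0.22, and 6 of 10 were above 0 by more than their errors, against 18.6% of the detected genes. With si-FOXQ1-2 the median was -0.03, with WEE1 and MELK above and 2 kinases, NEK2 (-0.23 ± 0.21) and BUB1 (-0.24 ± 0.21), below 0 by more than their errors, against 16.9% of the detected genes above and 20.5% below. The second NEK2 probe had the opposite sign there, within its error (0.16 ± 0.21). AURKA, NEK2 and BUB1 differed between the siRNAs by more than the combined errors (0.41 ± 0.29, 0.44 ± 0.29 and 0.49 ± 0.29), but NEK2 did not by its second probe (0.25 ± 0.30). No kinase was past 2-fold on either array, against 3.31% lower and 0.905% higher of 19438 detected genes with si-FOXQ1-1, and 3.29% and 0.412% of 19437 with si-FOXQ1-2. Among genes well above background in both channels, as all kinases were, the shares were 0.366% and 0.883% with si-FOXQ1-1. With si-FOXQ1-2 they were 0.374% and 0.344%.

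The untreated lines already differed in these genes. Mock signals were compared within a probe, as log2 signal minus the 75th percentile of the channel, over 4 PC3, 2 FaDu and 2 PANC-1 channels, and no test was run. Whether channels of a line came from separate cultures is not given in the sources used here. BUB1B was highest in PC3, at 3.93 ± 0.17 (SD, n = 4), next in PANC-1 at 3.45 ± 0.02 (SD, n = 2) and lowest in FaDu at 2.45 ± 0.04 (SD, n = 2). No channel of any line overlapped with another line. BUB1 had a different order, 3.79 in PANC-1 (both channels), 2.92 ± 0.09 (SD, n = 4) in PC3 and 1.81 ± 0.06 (SD, n = 2) in FaDu. TTK was lowest in PC3, at 1.00 ± 0.21 (SD, n = 4), below FaDu at 1.87 ± 0.05 (SD, n = 2) and PANC-1 at 1.74 (both channels 1.73 to 1.74).

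MELK and WEE1 stood out in PANC-1. MELK was 2.84-fold higher there than in PC3, while the PC3 and FaDu channels overlapped. WEE1 was 2.61-fold higher in PANC-1 than in PC3, and its FaDu level lay below all PC3 channels. AURKA and AURKB were also highest in PANC-1, and AURKB, PLK1, PLK4 and MELK were the 4 kinases whose PC3 and FaDu channels overlapped.

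Over the 10 kinases PANC-1 was higher than PC3 by a median of 0.71 and than FaDu by 0.89, with 8 of 10 kinases higher and 2 of 10 lower, without overlap, in each comparison. FaDu and PC3 differed by a median of 0.01, with 4 kinases lower and 2 higher in FaDu without overlap. Such separation was common, since 78.6% of 15862 genes above background in all 8 mock channels did not overlap between PANC-1 and PC3, 89.5% between PANC-1 and FaDu and 84.1% between FaDu and PC3. PLK4 and TTK, lower in PANC-1 than in FaDu here, were higher there by 0.11 and 0.21 when channels were scaled by their median, which shifted every gene of that comparison by 0.34.

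**Figure D3:**
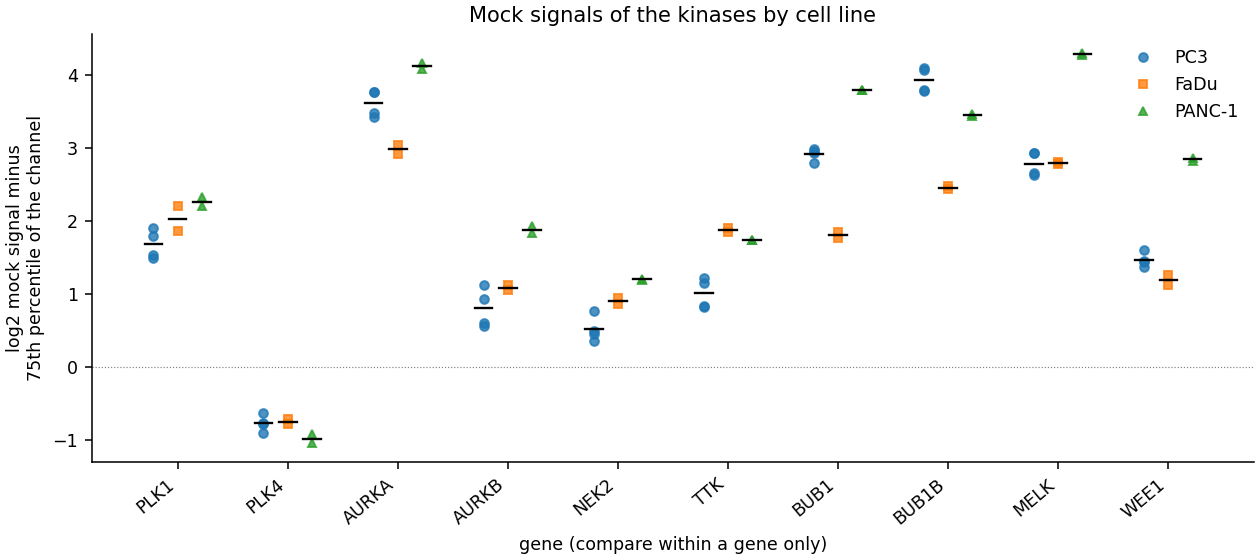
Log2 mock signal of each kinase minus the 75th percentile of all gene probes in the same channel (y axis), for 4 PC3, 2 FaDu and 2 PANC-1 mock channels (points) with the mean of each line (bars). BUB1B is highest in PC3 while MELK and WEE1 are highest in PANC-1, and levels are comparable within a gene only because probes differ in brightness.

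Genes that work with these kinases were described from lists written with earlier results of these data known. On the array of PC3 cells with miR-99a-3p, 7.39% of all detected genes were at least 2-fold lower and 4.23% at least 2-fold higher. Among 14 other kinases of the mitotic cell cycle, all detected there, 6 were at least 2-fold lower and none higher. Their median was -0.88. The lowest measured in both channels were CDK1 (-3.03 ± 0.35), the kinase that WEE1 restrains, PBK (-2.45 ± 0.31) and PKMYT1 (-2.26 ± 0.29), which like WEE1 inhibits CDK1. NEK6, which acts in the NEK9 and NEK7 cascade, was the highest of those measured in both channels, at 0.42 ± 0.21. In FaDu cells with the same miRNA these 4 genes had 0.86, 1.32, 0.98 and 1.92. Of the 13 kinases of this list detected there 3 were at least 2-fold higher and 1 lower, PLK3 (-1.47), and the median was 0.82. Over all detected genes of that array 8.25% were at least 2-fold higher and 9.37% lower.

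Of 13 activators and binding partners, 11 were at least 2-fold lower in PC3 cells with miR-99a-3p, against 7.39% of the detected genes. The median of the 13 was -1.56. The lowest were BIRC5 (-2.41 ± 0.30) and CDCA8 (-2.12 ± 0.28), both partners of AURKB in the passenger complex, and CASC5 (-2.35 ± 0.30), the kinetochore scaffold now named KNL1 that docks BUB1. CEP192, a centrosome scaffold for PLK4 and AURKA, was highest at -0.54 ± 0.21. In FaDu cells with miR-99a-3p all 13 were above 0, with a median of 0.69 beside -0.03 for the detected genes. Only 2 of the 13, BIRC5 (1.21) and CDCA8 (1.19), were at least 2-fold higher, against 8.25% of the detected genes.

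Of 14 substrates, opponents and checkpoint effectors, 10 were at least 2-fold lower in PC3 cells with miR-99a-3p, against 7.39% of the detected genes. The median of the 14 was -1.73. Cyclin A2 (CCNA2, -2.20 ± 0.30), CDC20 (-2.10 ± 0.28), the anaphase activator that the checkpoint holds back, and MAD2L1 (-2.07 ± 0.28), a checkpoint protein that binds CDC20, were lowest among those measured in both channels. ARPP19, an inhibitor of the phosphatase that opposes CDK1, was highest at 0.32 ± 0.21. In FaDu cells with miR-99a-3p 5 of 14 were at least 2-fold higher, against 8.25% of the detected genes. The median of the 14 was 0.65, with CCNA2 at 1.59 and MAD2L1 at 1.31.

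The regulators of cell cycle transcription were more divided. In PC3 cells with miR-99a-3p 6 of 22 were at least 2-fold lower and none higher, against 7.39% and 4.23% of the detected genes. The median of the 22 was -0.42. E2F2 (-3.08 ± 0.35), FOXM1 (-2.57 ± 0.31) and E2F1 (-2.45 ± 0.31), all activators of cell cycle genes, were lowest, and NFYA, a subunit of the CCAAT-binding factor NF-Y, was highest at 0.52 ± 0.21. In FaDu cells E2F2 was at 2.39 ± 0.30, NFYA at 1.58 ± 0.28 and E2F1 at 0.77 ± 0.22, whereas FOXM1 was within its error of 0 (0.17 ± 0.20). With miR-100-3p in PC3 FOXM1 was at -1.10 ± 0.23 and E2F1 at -0.42 ± 0.21. With miR-150-3p they were at -1.02 ± 0.22 and -1.27 ± 0.24.

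**Figure D4:**
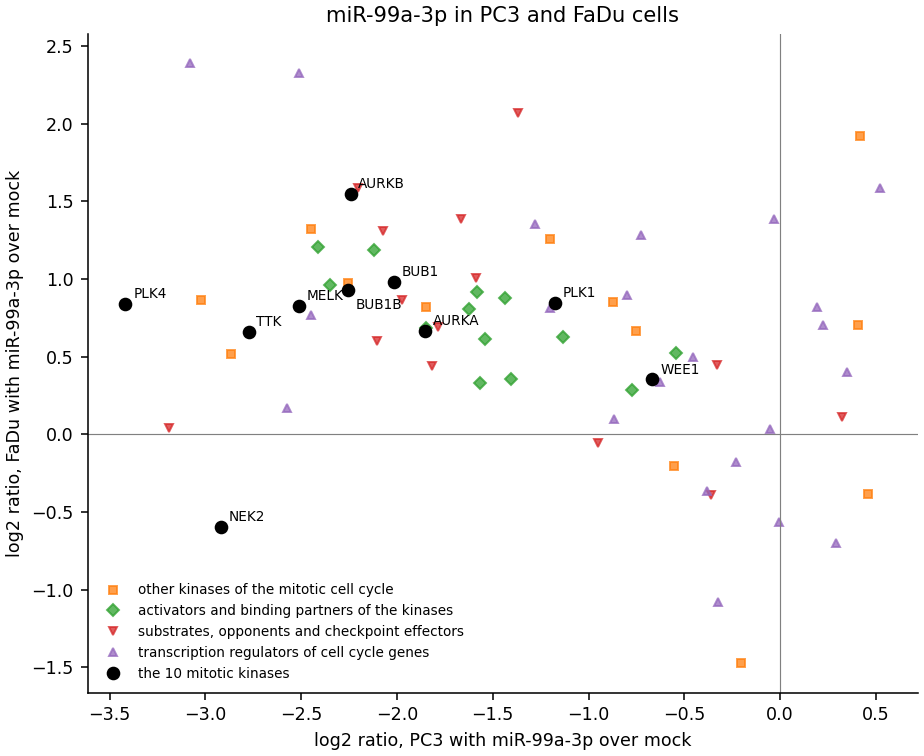
Log2 ratio with miR-99a-3p over mock in PC3 (x axis) and FaDu cells (y axis), each point a detected gene of the 10 kinases (black, named) or of 4 lists of related genes. All kinases but NEK2 lie in the upper left, lower in PC3 and higher in FaDu cells, and most partners and substrates lie there too, while transcription regulators spread more widely.

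Promoters were examined because the kinases shifted together. RefSeq (GRCh38.p14) windows of 300 bases, from 250 before to 50 after a gene start, were held for 7 kinases, and AURKA, TTK and WEE1 are named only. Letters were searched on both strands. TTTGAA, the core of the cell cycle genes homology region, was in 15.2% of all 35116 windows, in at least 1 window of 18.2% of the 27305 genes and in a window of 3 of the 7 kinases, PLK1, BUB1B and PLK4 (after the start in PLK4). CCAAT, the box bound by NF-Y, was in 34.6% of all windows, in at least 1 window of 39.7% of genes and in a window of 5 of the 7, PLK1, NEK2, BUB1, AURKB and PLK4. The E2F motifs TTTCCCGC, TTTGGCGC and TTTCGCGC were in 1.63%, 0.652% and 0.515% of windows and in 0 of 7 kinases. MELK held none of these letters. PLK4 has 3 windows and AURKB 2, and the other 5 kinases have 1 each.

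The 100 bases just before the gene start are shown for 4 of the 5 kinases with a motif there, 5′ to 3′ on the strand of the gene, with TTTGAA and CCAAT, or their reverse complements, in capitals. They come from chr16:23678789-23678888 (PLK1, plus strand), chr15:40160969-40161068 (BUB1B, plus strand), chr1:211675622-211675721 (NEK2, minus strand) and chr2:110678064-110678163 (BUB1, minus strand).
PLK1: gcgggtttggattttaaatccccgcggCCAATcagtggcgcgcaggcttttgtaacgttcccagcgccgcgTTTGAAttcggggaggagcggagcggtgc
BUB1B: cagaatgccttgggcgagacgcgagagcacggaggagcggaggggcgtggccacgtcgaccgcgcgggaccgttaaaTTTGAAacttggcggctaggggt
NEK2: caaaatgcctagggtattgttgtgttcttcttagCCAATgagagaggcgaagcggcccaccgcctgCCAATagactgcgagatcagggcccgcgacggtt
BUB1: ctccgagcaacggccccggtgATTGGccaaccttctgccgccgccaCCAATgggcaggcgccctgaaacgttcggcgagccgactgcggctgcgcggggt
TTTGAA began 29 bases before the start in PLK1 and 23 before it in BUB1B, on the gene's strand in both. CCAAT began 73 bases before the start in PLK1, 66 and 34 before it in NEK2, and 54 before it in BUB1, which also held the reverse complement from 79. In PLK4, the fifth kinase, the reverse complement of CCAAT began 86 bases before 1 of its 3 starts. These matches describe letters only.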

How the data were processed

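Expression was measured in PC3, FaDu and PANC-1 cells on 8 two-colour Agilent arrays, 1 per condition. The authors' scanner software (Feature Extraction 10.7.3.1, hg19 probe annotation) corrected the background and normalized the dyes within each array. The deposited intensity values are its processed signals, and the deposited log10 ratio values are Cy5 over Cy3 with a spot error. The series values deposited by the authors equalled these ratios at every spot, and no other normalization is given in the sources used here. Ratios were multiplied to the log2 scale with Python 3.11.15 and pandas 2.3.3. Control spots and spots with an outlier flag (81 to 178 gene spots per array) were left out. Repeated spots were averaged per probe, and each gene was taken from its probe with the highest mean log2 signal. None of the gene spots was saturated. A gene was detected when either channel was well above background. A kinase not above background in Cy5 received a bound, the mock signal over the lowest Cy5 signal called above background on the array (45.8 with miR-99a-3p in PC3). Where its own Cy5 signal was higher, that signal was used, and the bound then equals the ratio. The number of arrays limits the precision, and there was no test. The members, the gene lists and the rule for named genes (the 10 kinases, FOXQ1, and per list the 3 lowest and the 1 highest gene measured in both channels with miR-99a-3p in PC3) were chosen with earlier results of these data known. Some cell line markers are not reported here. Alternatives used limma 3.58.1 (R 4.3.3) with normexp at an offset of 50 and loess, or concerned the probe, filter, centring, threshold and control. The change of control, to averaged mock channels, also used limma and Aquantile between arrays. The limma step without Aquantile and the step from spots to genes were tested on simulated data.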

Additional observations from a re-analysis of the deposited data

Results flagged for a closer look

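Between the lines, 9 kinases had opposite signs with miR-99a-3p on the only array of each line, below 0 in PC3 and above 0 in FaDu. The difference was not tested, since each line had 1 array. As the PC3 minus the FaDu log2 ratio it was -2.02 for PLK1, -4.26 for PLK4, -2.52 for AURKA and -3.79 for AURKB. It was -3.43 for TTK, -3.00 for BUB1, -3.19 for BUB1B, -3.34 for MELK and -1.02 for WEE1. The value of PLK4 rests on a Cy5 signal in PC3 that was not well above background. In the 4 PC3 mock channels no kinase had a channel that stood apart from the other 3 by Dixon's criterion. That criterion looks for a single outlying channel. It cannot flag a split into pairs of channels, which 9 kinases showed, so it does not show that these channels were alike.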

How the results depend on the processing

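The median log2 ratio of the 10 kinases with miR-99a-3p in PC3 (-2.25) became -1.73 after limma normexp and loess. It became -1.80 with the 4 PC3 mock channels averaged as the control. Wherever mock channels were averaged as the control, the signals had also passed limma normexp, loess and Aquantile between arrays, so more than the control changed. With bounds for the 2 dim kinases, an alternative chosen after seeing the data, the median was -2.13. The count of 9 kinases at least 2-fold lower there ranged from 7 to 10. With miR-150-3p the count of 1 lower became 0 after limma, with averaged mock channels and at 4-fold, 2 with the mean over probes or the least bright probe, and 7 at 1.5-fold. With miR-99a-3p in FaDu the count of 1 higher became 2 against the mean of the FaDu mock channels, 8 at 1.5-fold and 0 at 4-fold, and 1 kinase was lower at 1.5-fold. At 1.5-fold 1 kinase was higher with miR-99a-5p, 1 lower with miR-150-5p, 2 lower with miR-100-3p and 1 higher with si-FOXQ1-1. Of the medians of mock differences, FaDu minus PC3 became -0.18 with median scaling, and PANC-1 minus FaDu became 0.71 with Aquantile and 1.23 with median scaling, where PLK4 (0.11) and TTK (0.21) turned sign. Leaving out each mock channel in turn, also chosen after seeing the data, gave medians from -0.03 to 0.06, 0.65 to 0.77 and 0.88 to 0.91 for FaDu minus PC3, PANC-1 minus PC3 and PANC-1 minus FaDu. Of 638 values of single kinases 36 moved by more than the spot error and none past 2-fold changed sign. Many of the 638 could not move, so their number does not measure stability. The series values and the filter on both channels repeat the main value, and only PLK1 and NEK2 have a second probe. The cause of the moves was not tested. Leaving out a replicate of a condition was not possible with 1 array each. No paired analysis was possible because the labels number no replicates. Low signals limit PLK4 and NEK2, whose Cy5 signals with miR-99a-3p in PC3 were not well above background.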
